A study of Mus musculus with 8 samples.

Results

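The splicing factor gene families examined here were the genes whose RefSeq symbols start with Srsf, Hnrnp, Snrp, Sf3a or Sf3b, together with Ptbp1, Ptbp2, Rbfox1, Rbfox2, Nova1, Nova2, U2af1, U2af2, Tra2a and Tra2b. Of 68 such symbols in the RefSeq table, 60 had at least 1 probe among the 18842 gene symbols of the array, and they held 98 probes. The 8 symbols with no probe matched here were Hnrnpul2, Nova2, Srsf11 and the 5 pseudogene or retrogene symbols Hnrnpa1l2-ps, Snrp1c-ps1, Snrp1c-ps2, Snrpert and Srsf3-ps. The members comprised 10 SR proteins, 2 TRA2 proteins, 20 hnRNPs, 8 Sm proteins, 4 proteins of the U1 and U2 particles, 9 subunits of SF3A and SF3B, 2 U2AF subunits, 2 PTB proteins, 2 RBFOX proteins and 1 NOVA protein.

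RNA had been profiled on 8 single-colour arrays from N31, a line of neural progenitor cells (NPC) that was derived from mouse embryonic stem cells. The 4 groups of 2 arrays were NPC expressing the fluorescent protein EGFP, which the labels call control cells, NPC expressing W20, and EGFP and W20 cells at 72 h of reprogramming. NPC were grown with EGF at 10 ng/ml and bFGF at 10 ng/ml. Cells of the 72 h groups had received Dox at 40 ng/ml in NPC medium for 48 h, then Dox at 40 ng/ml for 24 h in medium with 10% KSR and LIF at 1000 U/ml. The series title speaks of faster reprogramming through proteins of bacteria. All groups shared the N31 line. The promoter that drove EGFP or W20, whether the cells were 1 clone, and which genes Dox switched on are not given in the sources used here. Whether the 2 arrays of a group represent separate cultures is not stated in the labels. The p-values therefore reflect the spread between arrays alone, and that spread may be technical.

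Removal of introns is carried out by the spliceosome, which is built from small nuclear ribonucleoproteins (snRNPs). Each snRNP holds an RNA, and most hold a ring of Sm proteins. The U1 particle recognises the start of an intron, and the U2 particle, with its SF3A and SF3B subunits, binds near the intron's end after U2AF has bound there. SR proteins mostly promote the use of the exons they bind, while many hnRNPs and the PTB proteins repress exons, and RBFOX, NOVA and PTB proteins are known for the splice choices that change as neural progenitors become neurons. Many SR protein and hnRNP genes carry a conserved exon whose inclusion marks the transcript for decay, so the level of such a transcript also depends on its own splicing.

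A level is the log2 of a probe's processed signal minus the log2 of that array's 75th percentile, so that 0 marks the 75th percentile. A level was not compared between genes, since probes differ in brightness. All differences are on the log2 scale with their standard error (SE) from a linear model of the 4 groups, each with n = 2 arrays, and a gene passed where its adjusted p over all 13617 genes tested was under 0.05. Of the 60 members, 59 were tested. The exception was Rbfox1, with a signal well above background on a single array. For Nova1 this held on 3 arrays, and for each other tested member on all 8. On every array 52 tested members lay above the 75th percentile, 5 lay below it, and 2 lay on either side. The median SD of the members between the 2 arrays of a group was 0.030 to 0.041 log2 units, and the largest was 0.47, that of Nova1 in EGFP NPC.

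All NPC arrays lay on 1 slide and all 72 h arrays on another, scanned separately, so a change over 72 h and a difference between slides cannot be told apart. The W20 and EGFP arrays compared with each other shared a slide. On each slide the EGFP arrays lay at positions 1 and 2 and the W20 arrays at positions 3 and 4. A difference with W20 and a difference between positions on the slide therefore cannot be told apart. The share of spots well above background ranged from 57.0% to 62.4% per array, and no spot was saturated. The spike-in probes of replicate 2 of W20 at 72 h had a mean log2 signal of 13.24, against 13.37 to 13.44 on the other 7 arrays. Of 10 neural progenitor markers, 8 were well above background on every array. Of 5 immune cell markers with a probe, 4 were well above background on no array.

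In NPC, where the comparison asks what W20 does to the progenitors, splicing factor genes were more often higher than lower with W20. Of the 59 members, 32 were higher in W20 NPC than in EGFP NPC, 4 were lower and 23 did not pass. Over all genes tested, 31.8% were called higher and 23.6% lower in this comparison. The median difference was 0.13 over the members and 0.04 over all genes tested. The differences were small: 1 member, Srsf7, was both called and at least 1.5-fold higher, and 0 were so lower, against 3.74% and 6.98% of all genes. With quantile scaling in place of the 75th percentile 17 members were higher and 7 lower, and with spike-in scaling 12 were higher. Of the members' calls, 70.8% were higher with quantile and 80% with spike-in scaling, against 49.5% and 49.9% of all calls. The median difference with quantile scaling was 0.04 over the members and 0.003 over all genes. Without EGFP NPC replicate 2, 17 were higher and 1 lower, without W20 NPC replicate 2, 17 and 2, and without W20 NPC replicate 1, 1 was lower.

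At 72 h the picture had the same direction. Of the 59 members, W20 cells had 29 higher than EGFP cells, 1 lower and 29 that did not pass, while 28.4% of all genes were called higher and 24.4% lower. The lower member was Ptbp2. The median difference was 0.15 over the members and 0.03 over all genes. At least 1.5-fold differences passed for 0 members in either direction, against 3.08% of all genes higher and 6.81% lower. With spike-in scaling 7 members were higher, and the split of all calls moved from 53.8% to 39.7% higher. With quantile scaling the median difference was 0.06 over the members and 0.005 over all genes, and 47.7% of all calls were higher. Without the filter on dim probes 64.5% of all calls were higher. Without EGFP 72 h replicate 2, 17 members were higher, and without W20 72 h replicate 1, 18 were. Without either EGFP NPC array, 2 were lower.

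The NPC and 72 h comparisons of W20 with EGFP shared no array, but their arrays had the same layout on the slide. Of the members higher in NPC, 62.5% were also higher at 72 h, and these 20 genes were 69.0% of those higher at 72 h. Over all genes tested the corresponding shares were 55.8% and 62.6%. Markers of proliferating cells moved with the same groups: their 8 genes, all well above background on every array, had a summed linear signal, in multiples of each array's 75th percentile, of 68.8 to 71.5 in EGFP NPC, 88.9 on both W20 NPC arrays, 88.8 to 88.9 in EGFP cells at 72 h and 102 to 103 in W20 cells at 72 h. Of these 8 genes, 6 were higher with W20 in NPC and 5 at 72 h, with 0 lower in either. Markers of other cell types moved with W20 as well. Of 7 mesenchymal cell markers, 5 of them well above background on every array, 7 were lower in NPC and 6 at 72 h, with sums of 147 to 167 in EGFP NPC, 98.8 to 102 in W20 NPC, 134 to 137 in EGFP cells at 72 h and 89.0 to 91.8 in W20 cells at 72 h. Of 6 epithelial cell markers, with Ocln well above background on no array, 5 were tested, and 4 were higher and 0 lower in NPC but 1 higher and 3 lower at 72 h. Their sums were 142 to 149, 234 to 247, 93 to 95.3 and 64.0 to 64.6 in the same order of groups. The part of these markers in the result was not tested. In bulk RNA, a change in the share of cells of a type and a change in RNA per cell cannot be told apart.

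**Figure D1:**
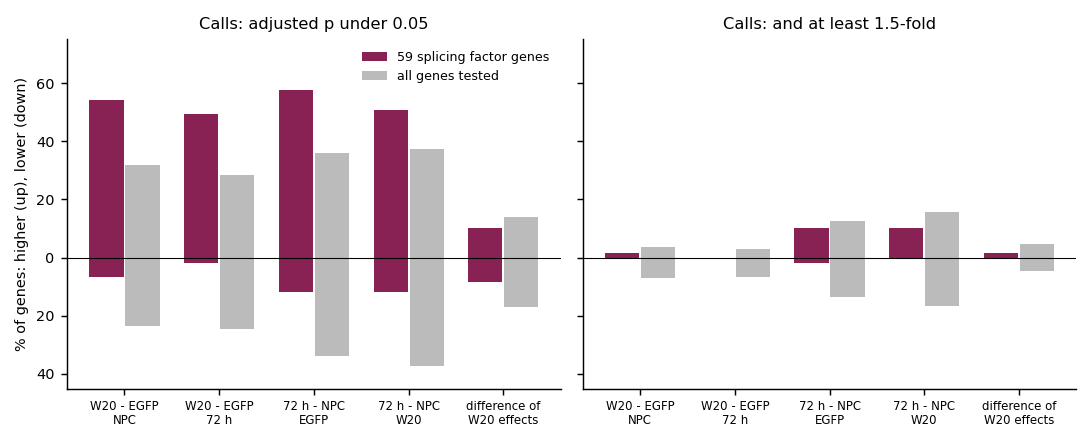
Share of genes called, for 59 splicing factor genes (purple bars) and all 13617 genes tested (grey bars), in percent on the vertical axis, with genes called higher drawn upward and lower drawn downward from 0, for each of the 5 comparisons. On the left, where calls are by adjusted p under 0.05, 54.2% of the members were higher with W20 in NPC against 31.8% of all genes. On the right, where calls also needed a 1.5-fold difference, that share was 1.69% against 3.74%.

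Over the 72 h in EGFP cells, 34 members rose, 7 fell and 18 did not pass, while 36.1% of all genes rose and 33.8% fell. The median change was 0.17 over the members and 0.01 over all genes. At least 1.5-fold, 6 members rose, namely Snrpn, Srsf3, Hnrnpdl, Srsf6, Snrpb and Snrpa1, and Srsf12 fell, against 12.7% of all genes rising and 13.7% falling that far. In W20 cells 30 members rose, 7 fell and 22 did not pass, with 37.5% of all genes rising and 37.2% falling. The same 6 genes rose at least 1.5-fold in W20 cells and 0 members fell that far, against 15.7% and 16.5% of all genes. The members that rose in both kinds of cells numbered 28, which was 82.4% of those in EGFP cells and 93.3% of those in W20 cells, and over all genes the shares were 83.9% and 80.9%. With spike-in scaling 3 members fell in W20 cells, and with the mean of all probes of a gene 4 fell.

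Markers of several cell types moved with the stage. The sum of 10 neuron markers was 2.50 to 2.67 times the 75th percentile in the NPC groups, 9.27 to 9.45 in EGFP cells at 72 h and 11.3 to 12 in W20 cells at 72 h, with Syp and Snap25 well above background on no array. The sum of 6 oligodendrocyte markers was 2.78 to 2.83 in EGFP NPC, 3.18 to 3.37 in W20 NPC, 4.76 to 4.93 in EGFP cells at 72 h and 6.38 to 6.43 in W20 cells at 72 h, with Olig2 and Mog well above background on no array. The sum of 6 astrocyte markers was 4.61 on both EGFP NPC arrays, 3.97 to 4.1 in W20 NPC, 2.33 to 2.46 in EGFP cells at 72 h and 2.04 to 2.06 in W20 cells at 72 h, with Aqp4 and Slc1a2 well above background on no array. Epithelial and mesenchymal marker sums, given above, were lower at 72 h in both kinds of cells. Such sums are weighted to their brightest genes, and single markers went both ways. Of 5 epithelial markers tested, 2 rose and 3 fell in EGFP cells, and 1 rose and 4 fell in W20 cells. Of 7 mesenchymal markers, 0 rose and 5 fell in EGFP cells, and 1 rose and 4 fell in W20 cells. Of 7 neuron markers tested, 5 rose and 1 fell in EGFP cells, and 6 rose and 0 fell in W20 cells. The sum of the 6 pluripotent cell markers with a probe was 0.66 to 0.85 in the NPC groups and 0.47 to 0.61 at 72 h, with Pou5f1 well above background on no array. The part of these markers in the changes of the members was not tested.

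The promoters of these genes are shown because they moved together over 72 h in both kinds of cells. RefSeq windows of 300 bases, 250 before and 50 after the start of transcription on build GRCm38.p6, were found for 53 of the 60 members (71 windows), and none was used for Snrpb. Capitals mark matches to any of the motifs named below. Snrpn had 4 windows, each at a start of its own, of which windows 1 and 4 are given.
Srsf3, chr17:29032410-29032709, plus strand: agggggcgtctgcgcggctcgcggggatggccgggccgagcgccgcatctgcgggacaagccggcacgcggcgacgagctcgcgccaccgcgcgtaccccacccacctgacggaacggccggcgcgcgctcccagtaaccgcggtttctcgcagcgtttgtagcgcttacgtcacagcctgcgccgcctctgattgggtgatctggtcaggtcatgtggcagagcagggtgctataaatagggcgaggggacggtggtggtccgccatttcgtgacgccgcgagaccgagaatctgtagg
Srsf6, chr2:162931258-162931557, plus strand: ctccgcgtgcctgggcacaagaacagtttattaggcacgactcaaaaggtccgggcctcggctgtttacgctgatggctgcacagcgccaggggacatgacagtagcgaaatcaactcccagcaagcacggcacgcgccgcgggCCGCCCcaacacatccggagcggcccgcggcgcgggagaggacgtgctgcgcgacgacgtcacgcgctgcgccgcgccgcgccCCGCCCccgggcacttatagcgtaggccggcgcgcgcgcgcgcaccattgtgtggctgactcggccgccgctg
Hnrnpdl, chr5:100039173-100039472, minus strand: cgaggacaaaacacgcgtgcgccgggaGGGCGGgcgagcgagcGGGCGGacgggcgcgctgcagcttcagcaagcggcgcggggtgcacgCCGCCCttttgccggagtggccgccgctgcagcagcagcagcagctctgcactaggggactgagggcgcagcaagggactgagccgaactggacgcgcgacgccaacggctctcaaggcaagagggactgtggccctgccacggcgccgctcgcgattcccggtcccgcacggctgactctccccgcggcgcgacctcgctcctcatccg
Snrpa1, chr7:66060086-66060385, plus strand: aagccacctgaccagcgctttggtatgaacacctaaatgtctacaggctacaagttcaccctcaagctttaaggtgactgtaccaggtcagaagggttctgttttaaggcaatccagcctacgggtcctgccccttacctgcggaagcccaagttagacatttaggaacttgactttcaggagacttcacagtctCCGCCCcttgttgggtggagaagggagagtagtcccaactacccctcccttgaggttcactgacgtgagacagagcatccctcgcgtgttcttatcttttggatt
Snrpn window 1, chr7:60450128-60450427, minus strand: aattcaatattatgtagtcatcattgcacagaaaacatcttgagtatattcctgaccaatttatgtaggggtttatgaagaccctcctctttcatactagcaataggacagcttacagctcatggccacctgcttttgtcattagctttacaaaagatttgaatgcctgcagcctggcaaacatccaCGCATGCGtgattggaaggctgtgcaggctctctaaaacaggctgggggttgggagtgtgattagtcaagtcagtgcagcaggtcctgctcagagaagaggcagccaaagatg
Snrpn window 4, chr7:60005150-60005449, minus strand: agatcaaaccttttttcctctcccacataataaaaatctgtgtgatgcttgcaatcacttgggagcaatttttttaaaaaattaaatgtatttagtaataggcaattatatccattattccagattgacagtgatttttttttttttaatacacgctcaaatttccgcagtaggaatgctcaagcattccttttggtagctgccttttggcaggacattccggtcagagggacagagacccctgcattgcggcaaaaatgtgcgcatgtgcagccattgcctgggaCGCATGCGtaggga

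In all windows 6 motifs were searched on both strands. They were the E-box CACGTG, the cAMP response element TGACGTCA, the NRF1 motif CGCATGCG, the ETS motif CCGGAAGT, the YY1 motif AAGATGGC and the SP1 motif GGGCGG, and no one of them contains another. The SP1 letters stood at 3 places in the Hnrnpdl window, 2 in the Srsf6 window and 1 in the Snrpa1 window. The Srsf3 window held none of the letters searched. The NRF1 letters stood once in each of the 4 Snrpn windows, beginning 63, 78 and 71 bases before the start in windows 1, 2 and 3, and after the start in window 4. Of all 32851 promoter windows 1.87% held the NRF1 letters, against 9.86% of the members' windows, of which Snrpn accounted for 4 of 7. The ETS letters were in 14.1% of the members' windows and 3.89% of all windows, and the SP1 letters in 66.2% and 35.7%. The E-box was in 11.3% and 7.15%, the cAMP response element in 4.23% and 1.79%, and the YY1 letters in 4.23% and 2.75%. Among windows of protein-coding genes, 2.52% held the NRF1 letters, 5.15% the ETS letters and 46.2% the SP1 letters. There the E-box was in 7.84%, the cAMP response element in 2.23% and the YY1 letters in 3.05%. Overlapping windows of a gene, such as those of Srsf4 and Sf3b2 with the ETS letters, were each counted. The median GC content of the members' windows was 60.3%, against 56.3% for the windows of protein-coding genes. A match is a description of the letters and not a binding site, and no test was made of these shares.

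Among the SR proteins, Srsf3, the smallest SR protein and a regulator of splicing and of RNA export, had the largest rise over 72 h in both kinds of cells. Its levels were -1.34 and -1.20 on the EGFP NPC arrays, -1.43 and -1.44 on the W20 NPC arrays, -0.14 and -0.17 on the EGFP 72 h arrays and -0.27 and -0.38 on the W20 72 h arrays. All 72 h arrays lay above all NPC arrays. Srsf3 rose by 1.11 ± 0.060 in EGFP cells (2.16-fold, adjusted p = 2.13e-05) and by 1.11 ± 0.060 in W20 cells (2.16-fold, adjusted p = 1.46e-05). The W20 arrays lay below the EGFP arrays at each stage, and the differences of -0.17 ± 0.060 in NPC (adjusted p = 0.0527) and -0.17 ± 0.060 at 72 h (adjusted p = 0.0579) did not pass.

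Srsf6, an SR protein that binds exonic enhancers, behaved alike over time. Its levels were 0.50 and 0.67 on the EGFP NPC arrays, 0.49 and 0.55 on the W20 NPC arrays, 1.43 and 1.36 on the EGFP 72 h arrays and 1.61 and 1.60 on the W20 72 h arrays. The 2 NPC groups overlapped, and every 72 h array lay above them. Srsf6 rose by 0.81 ± 0.061 in EGFP cells (adjusted p = 7.90e-05) and by 1.09 ± 0.061 in W20 cells (adjusted p = 1.71e-05). At 72 h it was 0.21 ± 0.061 higher with W20 (adjusted p = 0.0309), and this call was lost without any one of the 72 h arrays (adjusted p = 0.0128 to 0.133 over the 8 leave-one-out fits) and with spike-in scaling.

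Srsf7, an SR protein with a zinc knuckle, had the largest W20 difference of any member that passed in NPC. Its levels were 3.55 and 3.56 on the EGFP NPC arrays, 4.12 and 4.17 on the W20 NPC arrays, 4.07 and 4.06 on the EGFP 72 h arrays and 4.41 and 4.35 on the W20 72 h arrays. The W20 arrays lay above the EGFP arrays at both stages without overlap. Srsf7 was higher with W20 by 0.59 ± 0.037 in NPC (1.5-fold, adjusted p = 0.000174) and by 0.32 ± 0.037 at 72 h (1.24-fold, adjusted p = 0.00125). It also rose over 72 h, by 0.51 in EGFP cells (adjusted p = 7.24e-05) and 0.24 in W20 cells (adjusted p = 0.00163). Genes with several probes are described by the brightest, and the p-values of single probes are adjusted over all 20342 probes tested. Of the 3 Srsf7 probes, the second brightest gave 0.60 ± 0.044 for W20 in NPC (adjusted p = 0.000297), while the dimmest gave 0.03 ± 0.039 (adjusted p = 0.483).

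Srsf10, an SR-like protein that can repress splicing when dephosphorylated, differed between its probes. The brightest probe had levels of 1.87 and 1.87 on the EGFP NPC arrays, 2.35 and 2.48 on the W20 NPC arrays, 1.89 and 1.85 on the EGFP 72 h arrays and 1.88 and 1.85 on the W20 72 h arrays. The W20 NPC arrays stood above the other 6, which lay between 1.85 and 1.89. By this probe Srsf10 was 0.55 ± 0.049 higher with W20 in NPC (adjusted p = 0.000447), 0.00 ± 0.049 apart at 72 h (adjusted p = 0.954), and fell by 0.55 ± 0.049 over 72 h in W20 cells (adjusted p = 0.000125). Another probe of the same transcript record gave -0.08 ± 0.046 for W20 in NPC (adjusted p = 0.199) and rose by 0.33 ± 0.046 over 72 h in W20 cells (adjusted p = 0.000952). The third, which names another transcript record, rose by 0.35 ± 0.031 there (adjusted p = 0.000144) and was 0.28 ± 0.031 higher with W20 in NPC (adjusted p = 0.00104). The fall over 72 h in W20 cells therefore had the opposite sign in the other probes, and the mean of all 3 probes gave 0.04.

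Srsf12, a little-expressed SR protein whose probe was dim here, showed opposite W20 differences at the 2 stages. Its levels were -3.55 and -3.33 on the EGFP NPC arrays, -3.75 and -3.93 on the W20 NPC arrays, -4.51 and -4.73 on the EGFP 72 h arrays and -3.99 and -4.24 on the W20 72 h arrays. The groups compared did not overlap, and all 72 h arrays lay below all NPC arrays. Srsf12 was 0.40 ± 0.129 lower with W20 in NPC (adjusted p = 0.0419) and 0.50 ± 0.129 higher at 72 h (adjusted p = 0.0204). In EGFP cells it fell by 1.18 ± 0.129 over 72 h (2.26-fold, adjusted p = 0.000391), the largest fall of any member. In W20 cells the change of -0.28 ± 0.129 did not pass (adjusted p = 0.0971). The NPC call ended without EGFP NPC replicate 2 or either W20 NPC array and with quantile or median scaling, and the 72 h call ended without EGFP 72 h replicate 2 or W20 72 h replicate 1.

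The other SR proteins moved by less. Srsf1, the founding SR protein, had levels of 3.20 and 3.11 on the EGFP NPC arrays, 3.47 and 3.44 on the W20 NPC arrays, 3.62 and 3.64 on the EGFP 72 h arrays and 3.82 and 3.86 on the W20 72 h arrays. The W20 arrays lay above the EGFP arrays at each stage. It was higher with W20 by 0.30 ± 0.041 in NPC (adjusted p = 0.0018) and 0.21 ± 0.041 at 72 h (adjusted p = 0.00772), and rose over 72 h by 0.47 and 0.38 in EGFP and W20 cells. Another Srsf1 probe, of a different transcript record, gave 0.30 and 0.41 for W20 in NPC and at 72 h. Over 72 h that probe gave -0.12 ± 0.077 in EGFP cells and -0.02 ± 0.077 in W20 cells (adjusted p = 0.206 and 0.855). The rise of Srsf1 therefore rests on its brightest probe. Srsf2, which also acts in transcription elongation, rose over 72 h by 0.57 ± 0.038 in EGFP cells (adjusted p = 5.07e-05) and 0.56 ± 0.038 in W20 cells (adjusted p = 4.11e-05), and its 3 probes rose by 0.39 to 0.57 in the 2 kinds of cells. Srsf4 was higher with W20 by 0.19 ± 0.032 in NPC (adjusted p = 0.00397) and 0.22 ± 0.032 at 72 h (adjusted p = 0.0028). Srsf5 fell over 72 h by 0.23 ± 0.034 in EGFP cells (adjusted p = 0.00146) and 0.17 ± 0.034 in W20 cells (adjusted p = 0.0047), against the direction of most of its family. Srsf9 had differences of 0.10 to 0.11 in the first 4 comparisons and passed in none. In all, 5 of 10 SR proteins were higher and 1 lower with W20 in NPC, 7 higher and 0 lower at 72 h, and 6 rose and 2 fell over 72 h in each kind of cell, where 31.8%, 28.4%, 36.1% and 37.5% of all genes were higher in the 4 comparisons. Several of the smaller calls rested on 1 array or 1 scaling: that of Srsf2 in NPC ended without W20 NPC replicate 2, and those of Srsf2 and Srsf4 at both stages and of Srsf1 at 72 h ended with spike-in scaling.

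The TRA2 proteins, which bind GA-rich exonic enhancers together with SR proteins, were both higher with W20 in NPC. Levels of Tra2a were 4.65 and 4.59 on the EGFP NPC arrays, 4.93 and 4.94 on the W20 NPC arrays, 4.94 and 4.90 on the EGFP 72 h arrays and 4.94 and 4.90 on the W20 72 h arrays. The EGFP NPC arrays lay below the other 6, which lay between 4.90 and 4.94. Tra2a was 0.32 ± 0.036 higher with W20 in NPC (adjusted p = 0.000929) and 0.00 ± 0.036 apart at 72 h (adjusted p = 0.974), and rose by 0.30 ± 0.036 over 72 h in EGFP cells (adjusted p = 0.000595). Its second probe gave 0.24 ± 0.035 in NPC (adjusted p = 0.0029), and at 72 h was lower with W20 by 0.12 ± 0.035 (adjusted p = 0.0348). Tra2b was higher with W20 by 0.16 ± 0.045 in NPC (adjusted p = 0.0287) and 0.15 ± 0.045 at 72 h (adjusted p = 0.0357), and both calls ended with median, quantile or spike-in scaling. Tra2b rose over 72 h by 0.29 ± 0.045 in EGFP cells and 0.29 ± 0.045 in W20 cells (adjusted p = 0.00169 for EGFP cells and 0.00169 for W20 cells).

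**Figure D2:**
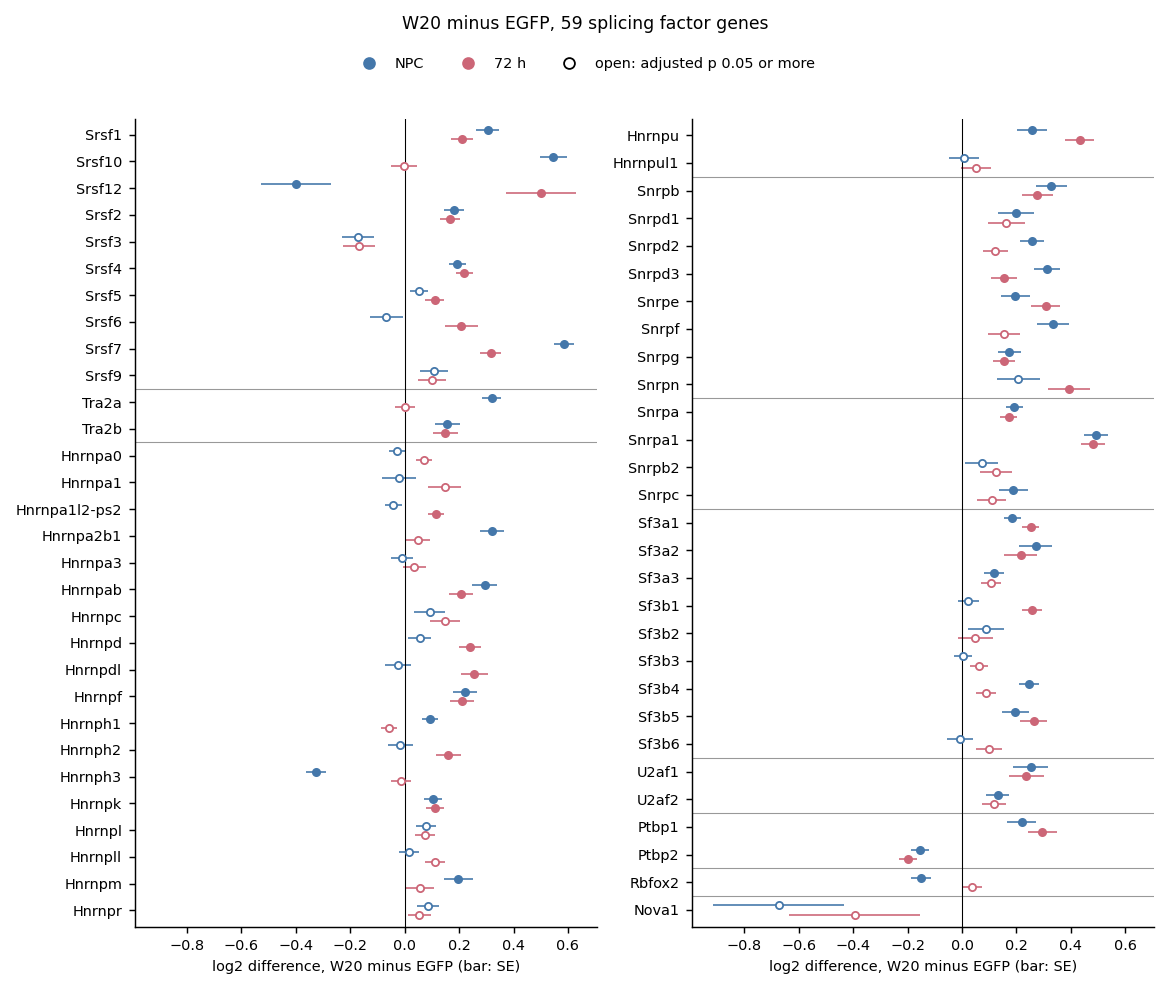
Log2 difference W20 minus EGFP (horizontal axis, points with SE bars) for each of the 59 tested splicing factor genes (rows, with lines between the families in the order SR, TRA2, hnRNP, Sm, U1 and U2 proteins, SF3A and SF3B, U2AF, PTB, RBFOX, NOVA). Blue points are NPC and red points 72 h, filled where the gene passed. Filled points lay right of 0 except those of Srsf12 in NPC, Hnrnph3 in NPC, Rbfox2 in NPC and Ptbp2 at both stages.

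Of the 20 hnRNPs, 7 were higher and 1 lower with W20 in NPC, against 31.8% and 23.6% of all genes, and 8 were higher and 0 lower at 72 h, against 28.4% and 24.4%. Over 72 h 12 rose and 3 fell in EGFP cells, against 36.1% and 33.8% of all genes, and 11 rose and 3 fell in W20 cells, against 37.5% and 37.2%. The hnRNP share higher in NPC was near that of all genes. Hnrnpdl, which is related to the AU-rich element binding protein Hnrnpd, rose most. Its levels were 2.42 and 2.54 on the EGFP NPC arrays, 2.44 and 2.47 on the W20 NPC arrays, 3.34 and 3.34 on the EGFP 72 h arrays and 3.62 and 3.57 on the W20 72 h arrays. The NPC groups overlapped, and at 72 h the W20 arrays lay above the EGFP arrays. Hnrnpdl rose by 0.86 ± 0.048 in EGFP cells (1.81-fold, adjusted p = 2.50e-05) and 1.14 ± 0.048 in W20 cells (2.2-fold, adjusted p = 5.51e-06), and all 3 probes rose in both, by 0.71 to 1.14. At 72 h it was 0.26 ± 0.048 higher with W20 (adjusted p = 0.00654), which ended with spike-in scaling. The probes differed on W20. The second brightest gave -0.27 ± 0.039 in NPC (adjusted p = 0.00249) and 0.02 ± 0.039 at 72 h (adjusted p = 0.68). The dimmest gave 0.00 ± 0.045 in NPC (adjusted p = 0.939) and 0.20 ± 0.045 at 72 h (adjusted p = 0.0133).

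Hnrnpu, the scaffold attachment factor that also shapes chromatin, was higher with W20 by 0.26 ± 0.054 in NPC (adjusted p = 0.00953) and 0.43 ± 0.054 at 72 h (adjusted p = 0.00158). Its levels were 4.66 and 4.63 on the EGFP NPC arrays, 4.95 and 4.86 on the W20 NPC arrays, 5.03 and 4.90 on the EGFP 72 h arrays and 5.40 and 5.39 on the W20 72 h arrays, with no overlap between the groups compared. It rose over 72 h by 0.32 in EGFP cells (adjusted p = 0.0026) and 0.50 in W20 cells (adjusted p = 0.00033). A second Hnrnpu probe gave -0.06 ± 0.031 in NPC (adjusted p = 0.15), and the call of the brighter probe in NPC ended without EGFP NPC replicate 2. Hnrnpab, an RNA-binding protein also known from transcription, was higher by 0.29 ± 0.045 in NPC (adjusted p = 0.00288) and 0.21 ± 0.045 at 72 h (adjusted p = 0.0115). It rose over 72 h by 0.41 ± 0.045 in EGFP cells (adjusted p = 0.000413) and 0.32 ± 0.045 in W20 cells (adjusted p = 0.00101), and its 3 probes passed upward in each of these 4 comparisons. The 72 h call of W20 ended without EGFP 72 h replicate 1 (adjusted p = 0.00742 to 0.0607 over the leave-one-out fits) and with spike-in scaling. Hnrnpd was 0.24 ± 0.041 higher with W20 at 72 h (adjusted p = 0.00473) and 0.05 ± 0.041 apart in NPC (adjusted p = 0.303), and the 72 h call ended with spike-in scaling. Its single probe rose over 72 h by 0.31 ± 0.042 in EGFP cells and 0.50 ± 0.042 in W20 cells (adjusted p = 0.00103 and 0.00011 over all probes tested).

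Hnrnpa2b1, an abundant hnRNP that represses exons and takes part in RNA transport, ran against the family over time. Its levels were 5.37 and 5.32 on the EGFP NPC arrays, 5.66 and 5.67 on the W20 NPC arrays, 5.11 and 5.0 on the EGFP 72 h arrays and 5.12 and 5.09 on the W20 72 h arrays. The 72 h arrays all lay below the NPC arrays, and the W20 NPC arrays lay highest. Hnrnpa2b1 was 0.32 ± 0.045 higher with W20 in NPC (adjusted p = 0.00206), and fell over 72 h by 0.29 ± 0.045 in EGFP cells (adjusted p = 0.00174) and 0.56 ± 0.045 in W20 cells (adjusted p = 8.01e-05). Hnrnpul1, related to Hnrnpu, fell by 0.42 ± 0.055 in EGFP cells (adjusted p = 0.000877) and 0.38 ± 0.055 in W20 cells (adjusted p = 0.0012), a change that its second probe, of another transcript record, did not show in W20 cells at 0.03 ± 0.104 (adjusted p = 0.829). Hnrnpa0 fell by 0.28 ± 0.030 in EGFP cells (adjusted p = 0.000367) and 0.18 ± 0.030 in W20 cells (adjusted p = 0.00221), as did its second probe.

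Hnrnph3, a small relative of the exon regulators Hnrnph1 and Hnrnpf, was the member of this family lower with W20 in NPC. Its levels were 3.02 and 3.08 on the EGFP NPC arrays, 2.73 and 2.72 on the W20 NPC arrays, 2.97 and 2.95 on the EGFP 72 h arrays and 2.98 and 2.92 on the W20 72 h arrays. The W20 NPC arrays lay below the other 6. The difference in NPC was -0.33 ± 0.036 (adjusted p = 0.000884), that at 72 h -0.01 ± 0.036 (adjusted p = 0.782), and Hnrnph3 rose by 0.22 ± 0.036 over 72 h in W20 cells (adjusted p = 0.00206). Hnrnph1 was 0.09 ± 0.030 higher in NPC (adjusted p = 0.0437), a call lost in 6 of the 8 fits that left out 1 array and under each other scaling. Hnrnpk, a poly(C)-binding hnRNP, was 0.10 ± 0.033 higher in NPC (adjusted p = 0.0388) and 0.11 ± 0.033 at 72 h (adjusted p = 0.0327), and with quantile scaling these differences were -0.02 and -0.01.

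Hnrnpa1, a repressor of exons and the best studied hnRNP, did not pass for W20, with -0.02 ± 0.061 in NPC (adjusted p = 0.789) and 0.15 ± 0.061 at 72 h (adjusted p = 0.0925). It rose over 72 h by 0.29 ± 0.061 in EGFP cells (adjusted p = 0.00652) and 0.46 ± 0.061 in W20 cells (adjusted p = 0.000795). Its dimmest probe rose by 0.81 ± 0.052 and 1.01 ± 0.052 (adjusted p = 4.83e-05 and 1.40e-05). Values of Hnrnpa1 and of Hnrnpa1l2-ps2, a near copy of it, are uncertain, since a probe may not tell the 2 genes apart. Hnrnpa3 did not pass in any comparison by its brightest probe, while the probe of another of its transcript records rose by 0.45 ± 0.057 in EGFP cells (adjusted p = 0.000806) and 0.67 ± 0.057 in W20 cells (adjusted p = 0.000116). Hnrnpc, Hnrnpl and Hnrnpa3 passed in 0 of the 5 comparisons, and Hnrnpf, Hnrnph2, Hnrnpll, Hnrnpm and Hnrnpr passed upward in 2 to 4 of them with differences of 0.14 to 0.37.

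**Figure D3:**
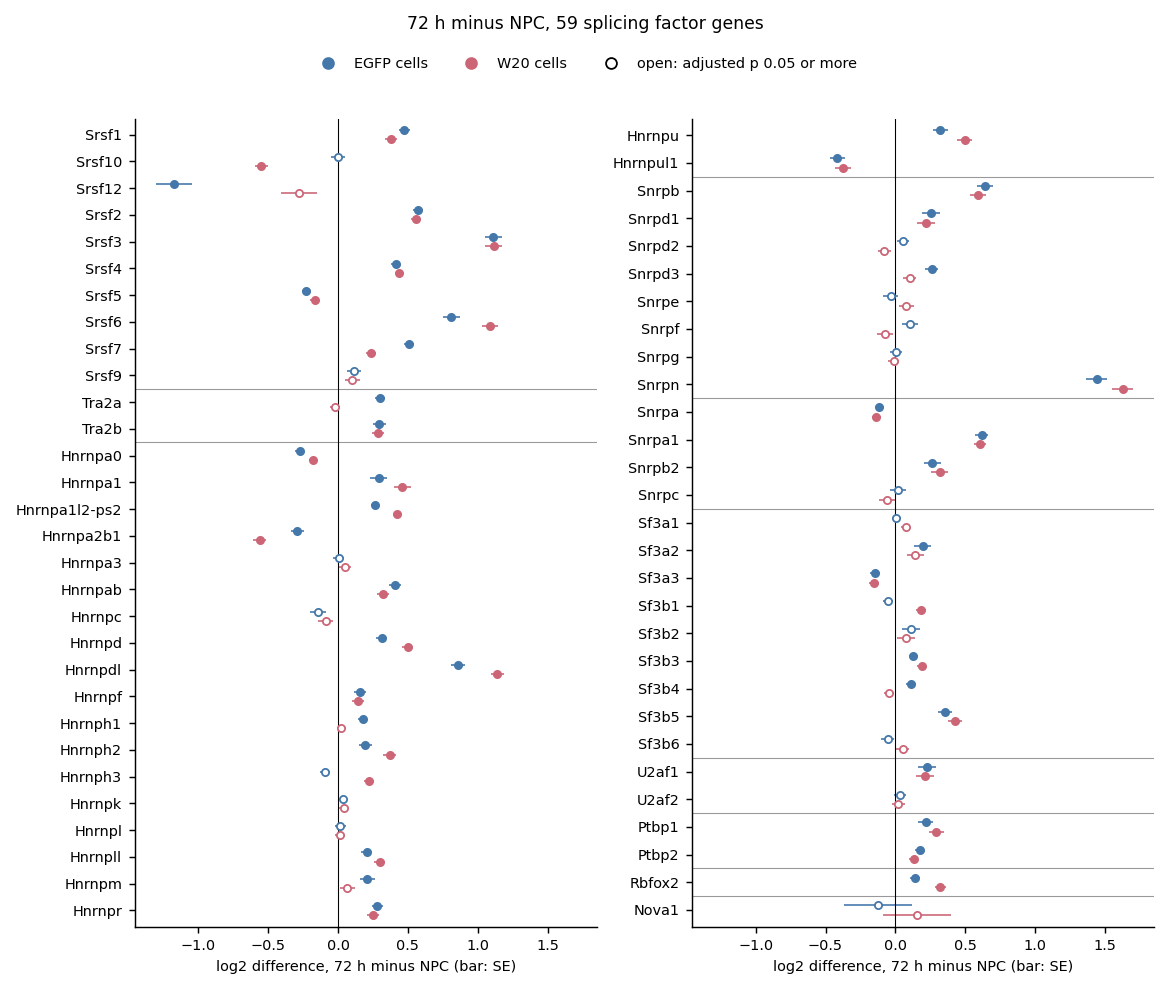
Log2 difference 72 h minus NPC (horizontal axis, points with SE bars) for the 59 tested splicing factor genes, in rows as in the plot of W20 differences, with EGFP cells in blue and W20 cells in red and filled points where the gene passed. Snrpn, Srsf3, Hnrnpdl and Srsf6 lay farthest right in both kinds of cells, at 0.81 to 1.63, and Srsf12 lay farthest left, at -1.18 in EGFP cells.

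The Sm proteins, which form the ring common to most snRNPs, were mostly higher with W20. In NPC 7 of 8 were higher and 0 lower (31.8% and 23.6% of all genes), with differences of 0.17 to 0.33 over all 8, and at 72 h 5 were higher and 0 lower (28.4% and 24.4% of all genes). Snrpb, which codes for the SmB proteins, had levels of 2.89 and 2.81 on the EGFP NPC arrays, 3.13 and 3.22 on the W20 NPC arrays, 3.5 and 3.48 on the EGFP 72 h arrays and 3.83 and 3.71 on the W20 72 h arrays. No groups overlapped. Snrpb was higher with W20 by 0.33 ± 0.057 in NPC (adjusted p = 0.00455) and 0.28 ± 0.057 at 72 h (adjusted p = 0.00944), and rose over 72 h by 0.64 ± 0.057 in EGFP cells (adjusted p = 0.000162) and 0.59 ± 0.057 in W20 cells (adjusted p = 0.000186). Snrpf was 0.33 ± 0.058 higher with W20 in NPC (adjusted p = 0.00449) and 0.15 ± 0.058 apart at 72 h (adjusted p = 0.0693), with nearly the same values from its second probe. Snrpd3, which codes for SmD3, was 0.31 ± 0.047 higher with W20 in NPC (adjusted p = 0.00272), a call that held without each array in turn and under the other scalings, and rose by 0.26 ± 0.047 over 72 h in EGFP cells (adjusted p = 0.0036). At 72 h it was 0.16 ± 0.047 higher with W20 (adjusted p = 0.0364), a call lost in 5 of the 8 fits that left out 1 array and under each other scaling. Snrpe was 0.31 ± 0.053 higher with W20 at 72 h (adjusted p = 0.00496). Of the 7 Sm calls in NPC, those of Snrpd1, Snrpe and Snrpg ended without EGFP NPC replicate 2 or either W20 NPC array. They also ended with quantile or spike-in scaling, while that of Snrpd2 ended with spike-in scaling. The Snrpd1 call was lost in 6 of the 8 fits that left out 1 array. It was also lost with median scaling, no filter or the mean of all probes. The Snrpe call was lost without any one of the 4 NPC arrays, and with no filter.

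Snrpn, an imprinted gene that codes for the SmN protein and whose product replaces SmB in neurons, had the largest rise over 72 h of any member. Its levels were -1.01 and -1.0 on the EGFP NPC arrays, -0.73 and -0.86 on the W20 NPC arrays, 0.51 and 0.36 on the EGFP 72 h arrays and 0.91 and 0.76 on the W20 72 h arrays. All 72 h arrays lay above all NPC arrays, and at each stage the W20 arrays lay above the EGFP arrays. Snrpn rose by 1.44 ± 0.078 in EGFP cells (2.72-fold, adjusted p = 2.19e-05) and 1.63 ± 0.078 in W20 cells (3.09-fold, adjusted p = 9.31e-06). With W20 it was 0.39 ± 0.078 higher at 72 h (adjusted p = 0.0081) and 0.21 ± 0.078 apart in NPC (adjusted p = 0.0662). Its second probe rose by 1.39 ± 0.051 and 1.69 ± 0.051 over 72 h (adjusted p = 6.45e-06 and 2.01e-06). The 4 promoter windows of Snrpn, of which 2 are printed above, each hold the NRF1 letters.

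Among the proteins of the U1 and U2 particles, Snrpa1, the protein A' of the U2 particle, was higher with W20 and rose over time. Its levels were 1.92 and 1.84 on the EGFP NPC arrays, 2.34 and 2.40 on the W20 NPC arrays, 2.52 and 2.47 on the EGFP 72 h arrays and 3.00 and 2.96 on the W20 72 h arrays. The 4 groups did not overlap, and the W20 NPC and EGFP 72 h arrays lay close together. Snrpa1 was higher with W20 by 0.49 ± 0.044 in NPC (1.41-fold, adjusted p = 0.000447) and 0.48 ± 0.044 at 72 h (1.4-fold, adjusted p = 0.000516), and rose by 0.62 ± 0.044 in EGFP cells (adjusted p = 6.46e-05) and 0.61 ± 0.044 in W20 cells (adjusted p = 5.14e-05). These 4 calls held without each array in turn, under the other scalings and when a change of at least 1.2-fold was asked for. Snrpa, protein A of the U1 particle, was higher with W20 by 0.19 ± 0.032 in NPC (adjusted p = 0.00367) and 0.17 ± 0.032 at 72 h (adjusted p = 0.00609), with 4 probes between 0.17 and 0.22, and both calls ended with spike-in scaling. Over 72 h in W20 cells the brightest Snrpa probe fell by 0.14 ± 0.032 (adjusted p = 0.00875) while another rose by 0.10 ± 0.031 (adjusted p = 0.0311), so its direction there is uncertain. In EGFP cells the brightest probe fell by 0.12 ± 0.033 (adjusted p = 0.0214 over all probes tested), and its other probes did not pass. The Snrpa call in EGFP cells ended with median or spike-in scaling and with the mean of all probes. Snrpc of U1 was 0.19 ± 0.055 higher with W20 in NPC (adjusted p = 0.0294), a call lost without either EGFP NPC array or W20 NPC replicate 2 (adjusted p = 0.0308 to 0.139 over the leave-one-out fits), with quantile or spike-in scaling, with no filter, with the authors' value table and with the 2 groups alone. Snrpb2, protein B'' of the U2 particle, rose by 0.27 ± 0.060 and 0.32 ± 0.060 over 72 h in EGFP and W20 cells (adjusted p = 0.00889 and 0.00377), which its second probe at 0.04 and 0.01 did not show.

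Subunits of SF3A and SF3B, which hold the U2 particle at the branch point, were higher with W20 in 5 of 9 cases in NPC and 4 of 9 at 72 h, with 0 lower in either, where 31.8% and 28.4% of all genes were higher. Sf3a2 was 0.27 ± 0.060 higher in NPC (adjusted p = 0.0117) and 0.22 ± 0.060 at 72 h (adjusted p = 0.027). Its single probe rose over 72 h by 0.20 ± 0.061 in EGFP cells (adjusted p = 0.0295 over all probes tested), a call that ended with spike-in scaling or normexp. Sf3b4, mutated in a human craniofacial syndrome, was 0.25 ± 0.037 higher in NPC (adjusted p = 0.00255) and 0.09 ± 0.037 apart at 72 h (adjusted p = 0.0954). Sf3b5, the smallest of these subunits, was higher at both stages, by 0.20 ± 0.049 (adjusted p = 0.0179) and 0.26 ± 0.049 (adjusted p = 0.00653), and rose over 72 h by 0.36 in EGFP and 0.43 in W20 cells. Sf3a1 was higher by 0.18 ± 0.031 in NPC (adjusted p = 0.00425) and 0.25 ± 0.031 at 72 h (adjusted p = 0.00152) with its brightest probe, and its second probe gave 0.01 ± 0.063 and -0.06 ± 0.063 (adjusted p = 0.924 and 0.445). Sf3a3 fell over 72 h by 0.14 ± 0.036 in EGFP cells (adjusted p = 0.014) and 0.15 ± 0.036 in W20 cells (adjusted p = 0.0101), calls that ended with median or spike-in scaling, and in EGFP cells also without EGFP 72 h replicate 2 or EGFP NPC replicate 1. Sf3b3 rose over 72 h by 0.13 ± 0.033 in EGFP cells (adjusted p = 0.0149) and 0.19 ± 0.033 in W20 cells (adjusted p = 0.00294), calls that ended with spike-in scaling, and in EGFP cells also with normexp or without either EGFP 72 h array or EGFP NPC replicate 2. The calls of Sf3a2 and Sf3b5 in NPC ended without EGFP NPC replicate 2 or W20 NPC replicate 2, and that of Sf3a2 at 72 h was lost when any 72 h array was left out. Sf3b2 and Sf3b6 passed in 0 comparisons.

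Sf3b1, the scaffold of SF3B that is often mutated in blood cancers, had levels of 1.02 and 1.07 on the EGFP NPC arrays, 1.06 and 1.08 on the W20 NPC arrays, 1.03 and 0.96 on the EGFP 72 h arrays and 1.27 and 1.24 on the W20 72 h arrays. The W20 72 h arrays stood above the other 6. Sf3b1 was 0.26 ± 0.037 higher with W20 at 72 h (adjusted p = 0.00257) and 0.02 ± 0.037 apart in NPC (adjusted p = 0.625), and rose by 0.18 ± 0.037 over 72 h in W20 cells (adjusted p = 0.00503). Its second, dimmer probe had larger differences, with -0.42 ± 0.040 for W20 in NPC (adjusted p = 0.000647) and a rise of 0.87 ± 0.040 over 72 h in W20 cells (adjusted p = 9.03e-06). The 2 probes thus shared the direction at 72 h and differed in NPC. Both calls of the brighter probe ended with spike-in scaling.

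Of the U2AF subunits, which recognise the end of the intron, U2af1 was higher with W20 by 0.25 ± 0.064 in NPC (adjusted p = 0.0191) and 0.24 ± 0.064 at 72 h (adjusted p = 0.0248). Its levels were 3.82 and 3.73 on the EGFP NPC arrays, 4.05 and 4.01 on the W20 NPC arrays, 4.02 and 3.99 on the EGFP 72 h arrays and 4.33 and 4.16 on the W20 72 h arrays, without overlap between the groups compared. It rose over 72 h by 0.23 ± 0.064 in EGFP cells (adjusted p = 0.0207) and 0.21 ± 0.064 in W20 cells (adjusted p = 0.0248), and both of its probes gave 0.21 to 0.28 in these 4 comparisons. Each of these 4 calls was lost in 3 of the 8 fits that left out 1 array, with adjusted p = 0.00764 to 0.0963 in NPC and adjusted p = 0.00933 to 0.103 at 72 h. U2af2 was 0.13 ± 0.044 higher in NPC (adjusted p = 0.0476), a call lost in 7 of the 8 fits that left out 1 array (adjusted p = 0.0311 to 0.205), and did not pass at 72 h, with 0.12 ± 0.044 (adjusted p = 0.0683).

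The neural regulators moved in different directions. Ptbp1, the PTB protein of non-neuronal cells and progenitors, had levels of 3.90 and 3.82 on the EGFP NPC arrays, 4.05 and 4.12 on the W20 NPC arrays, 4.10 and 4.06 on the EGFP 72 h arrays and 4.32 and 4.42 on the W20 72 h arrays. The W20 arrays lay above the EGFP arrays at both stages. Ptbp1 was higher with W20 by 0.22 ± 0.053 in NPC (adjusted p = 0.0156) and 0.30 ± 0.053 at 72 h (adjusted p = 0.00567), and rose over 72 h by 0.22 ± 0.053 in EGFP cells (adjusted p = 0.0121) and 0.29 ± 0.053 in W20 cells (adjusted p = 0.00316). Its second probe gave 0.15 ± 0.040 and 0.17 ± 0.040 for W20 (adjusted p = 0.0225 and 0.0156), but -0.01 ± 0.040 and 0.01 ± 0.040 over 72 h (adjusted p = 0.871 and 0.783). The NPC call ended without EGFP NPC replicate 2 or W20 NPC replicate 2, and with quantile or spike-in scaling, and the 72 h call ended with spike-in scaling.

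Ptbp2, the PTB protein that replaces Ptbp1 in young neurons and whose exon Ptbp1 is known to repress, was lower with W20 at both stages. Its levels were 0.07 and 0.08 on the EGFP NPC arrays, -0.10 and -0.06 on the W20 NPC arrays, 0.27 and 0.23 on the EGFP 72 h arrays and 0.07 and 0.03 on the W20 72 h arrays. The W20 arrays lay below the EGFP arrays at each stage. The differences were -0.15 ± 0.033 in NPC (adjusted p = 0.0103) and -0.20 ± 0.033 at 72 h (adjusted p = 0.00436). Over 72 h Ptbp2 rose by 0.17 ± 0.033 in EGFP cells (adjusted p = 0.00415) and 0.13 ± 0.033 in W20 cells (adjusted p = 0.0127). Both of these calls ended with spike-in scaling. That in W20 cells also ended with median scaling and without W20 72 h replicate 1 or W20 NPC replicate 1. The call of the W20 difference in NPC ended without EGFP NPC replicate 2 or W20 NPC replicate 1. It also ended with normexp background correction, median or spike-in scaling. At 72 h the call held without each array in turn and under each other scaling, and Ptbp2 was the member lower there.

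Rbfox2, the widely expressed RBFOX protein, had levels of 2.03 and 2.05 on the EGFP NPC arrays, 1.88 and 1.90 on the W20 NPC arrays, 2.18 and 2.18 on the EGFP 72 h arrays and 2.26 and 2.17 on the W20 72 h arrays. It was 0.15 ± 0.037 lower with W20 in NPC (adjusted p = 0.0167), 0.04 ± 0.037 apart at 72 h (adjusted p = 0.452), and rose over 72 h by 0.14 ± 0.037 in EGFP cells (adjusted p = 0.0163) and 0.32 ± 0.037 in W20 cells (adjusted p = 0.000387). A dimmer probe, of another transcript record, gave -0.06 to 0.03 in these 4 comparisons and passed in none. The NPC call of Rbfox2 ended without any of the 4 NPC arrays and with median or spike-in scaling. Rbfox1, the neuronal RBFOX protein, had levels of -5.52 and -5.32 on the EGFP NPC arrays, -5.58 and -5.82 on the W20 NPC arrays, -6.70 and -7.73 on the EGFP 72 h arrays and -7.34 and -6.98 on the W20 72 h arrays, and its probe was well above background on 1 EGFP NPC array. Nova1, a neuronal regulator, had levels of -5.50 and -4.84 on the EGFP NPC arrays, -5.65 and -6.05 on the W20 NPC arrays, -5.19 and -5.41 on the EGFP 72 h arrays and -5.64 and -5.75 on the W20 72 h arrays. Its probe was well above background on 1 EGFP NPC array and both EGFP 72 h arrays and on no W20 array, so its level in W20 cells is only a bound. The fitted differences of -0.67 ± 0.241 in NPC (adjusted p = 0.0572) and -0.39 ± 0.241 at 72 h (adjusted p = 0.216) did not pass.

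**Figure D4:**
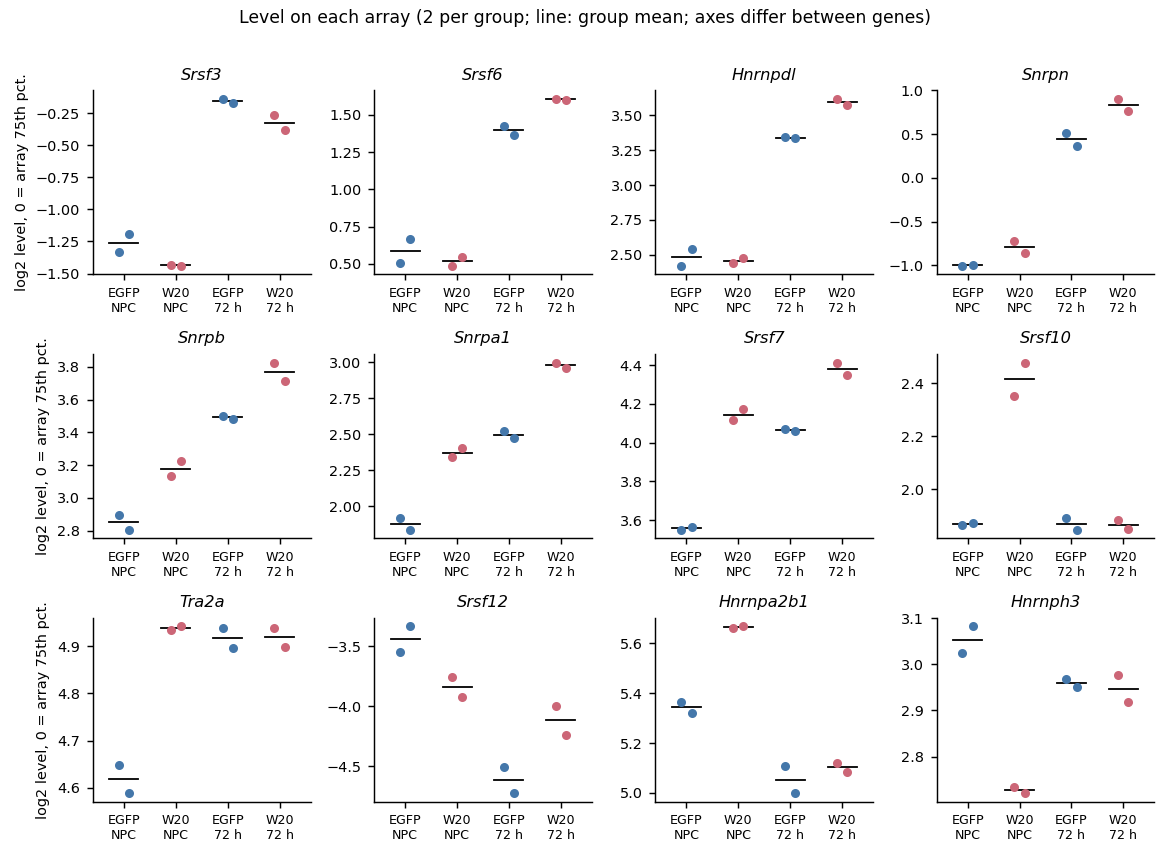
Level on each array (points, log2 relative to the array's 75th percentile) of 12 splicing factor genes, with EGFP arrays in blue, W20 arrays in red, 2 arrays per group, and a line at the group mean. The vertical axes differ between genes and do not start at a common value. Srsf3, Srsf6, Hnrnpdl and Snrpn were high in both 72 h groups, Srsf10 in W20 NPC alone, and Tra2a was low in EGFP NPC.

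The difference between the W20 effect at 72 h and that in NPC passed for 6 members upward and 5 downward, against 13.9% and 16.9% of all genes tested, and at least 1.5-fold for 1 member upward, Srsf12, and 0 downward, against 4.83% and 4.71%. The median was -0.0032 over the members and -0.02 over all genes. These differences used all 8 arrays. The largest were 0.90 ± 0.182 for Srsf12 (adjusted p = 0.0157) and -0.55 ± 0.069 for Srsf10 (adjusted p = 0.00309). Tra2a had -0.32 ± 0.051 (adjusted p = 0.0072), Hnrnph3 0.31 ± 0.051 (adjusted p = 0.00777) and Srsf7 -0.27 ± 0.052 (adjusted p = 0.0136), and these 3 calls, with that of Srsf10, held without each array in turn. For Tra2a and Srsf7 the brightest probe and 1 other gave this difference, and for Srsf10 the other 2 probes gave 0.03 to 0.06. With median scaling 1 member was higher and 3 lower, and with spike-in scaling 1 and 1. Leaving out any 1 array except EGFP NPC replicate 1 or W20 72 h replicate 2 left 1 to 3 higher, and leaving out any except EGFP 72 h replicate 2 or W20 72 h replicate 1 left 3 lower.

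**Figure D5:**
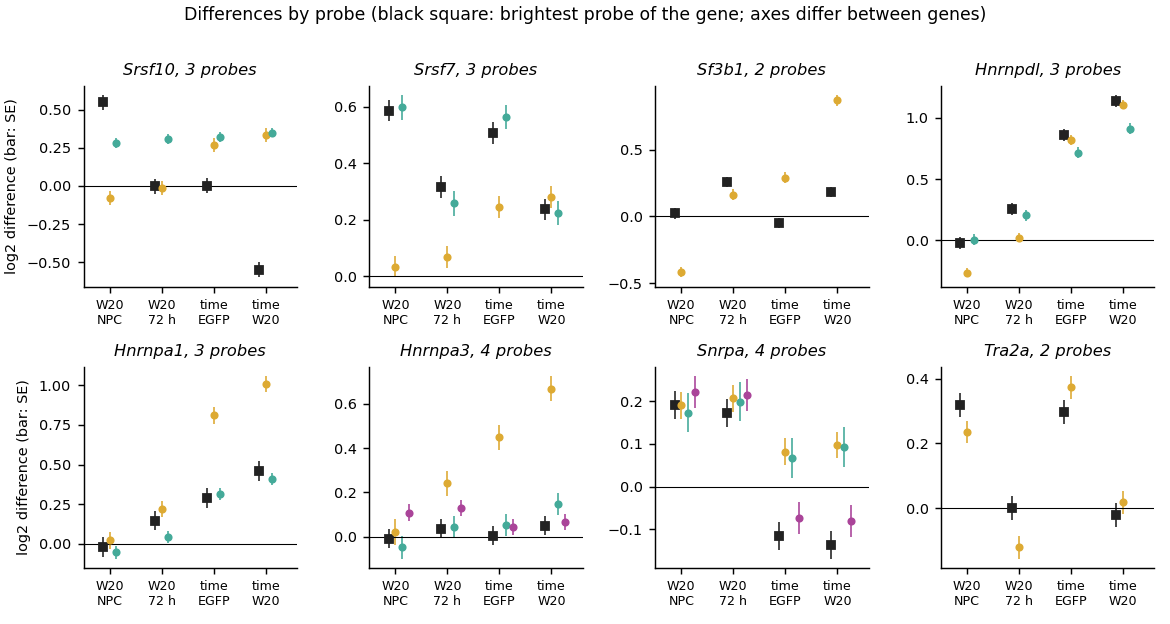
Log2 differences (vertical axis, with SE bars) by probe for 8 genes with several probes, for W20 minus EGFP in NPC and at 72 h and for 72 h minus NPC (time) in EGFP and W20 cells. Black squares are the brightest probe, used elsewhere, and coloured points the others, and vertical axes differ between genes. Probes of Hnrnpdl and Tra2a moved alike over time, while those of Srsf10 stood on opposite sides of 0 in W20 cells, at -0.55 against 0.33 and 0.35.

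Of the 28 members with several probes, 0 had probes called in opposite directions in 4 of the 5 comparisons, among 97 member probes tested. In the change over 72 h in W20 cells 2 did, Srsf10 and Snrpa. A probe measures the transcripts that carry its target, and which exons the probes lie in was not examined here.

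Other splicing genes, on 5 lists with 128 genes tested, were set beside the members. Of these, 74 were higher and 8 lower with W20 in NPC and 65 higher and 6 lower at 72 h, with medians of 0.17 and 0.14, where 31.8% and 28.4% of all genes were higher and 23.6% and 24.4% lower. Genes of the SMN complex and snRNP assembly, which load the Sm ring onto the RNA, had 10 of 13 higher and 0 lower in NPC, and 11 higher and 0 lower at 72 h, with medians of 0.29 and 0.22. The other core spliceosome genes had 34 of 55 higher and 2 lower in NPC, and 31 higher and 2 lower at 72 h. Usp39, a protein of the tri-snRNP, was 0.56 ± 0.043 (adjusted p = 0.000285) higher in NPC. Of 8 kinases of SR proteins, 3 were higher and 1 lower at both stages, and of 6 exon junction complex genes, 3 were higher and 0 lower at both, against the same 31.8% and 28.4% of all genes higher. Over 72 h all 5 lists had 55 rising and 26 falling in EGFP cells, and 52 and 34 in W20 cells, with medians of 0.07 and 0.05, while 36.1% and 37.5% of all genes rose and 33.8% and 37.2% fell.

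Among the 46 other splicing regulators, 24 were higher and 5 lower with W20 in NPC, and 17 were higher and 3 lower at 72 h. Of all genes tested, 31.8% were higher and 23.6% lower in NPC, and 28.4% and 24.4% at 72 h. The median size of difference of these regulators was 0.18 in NPC and 0.14 at 72 h. It was 0.18 and 0.15 for the members and 0.20 and 0.18 for all genes tested. Single regulators had larger differences. Rbm47, an RNA-binding protein of epithelia, was 0.99 ± 0.115 (adjusted p = 0.00103) higher with W20 in NPC (the difference at 72 h is not given, since its probe was not well above background in either group there). Over 72 h it was at least 5.37-fold lower in EGFP cells and at least 8.32-fold lower in W20 cells. Elavl3, a neuronal RNA-binding protein, was 1.59 ± 0.056 (adjusted p = 4.08e-05) higher with W20 at 72 h, and over 72 h was at least 1.71-fold higher in EGFP cells and at least 4.5-fold in W20 cells, since its probe was not well above background in either NPC group. Mbnl3, of the muscleblind family, rose by 2.33 ± 0.042 (adjusted p = 6.16e-07) in EGFP cells and 2.47 ± 0.042 (adjusted p = 2.93e-07) in W20 cells. Celf5, of the CELF family, was 0.75 ± 0.061 (adjusted p = 0.000339) lower with W20 in NPC, and Khdrbs3, a STAR family regulator, 0.59 ± 0.050 (adjusted p = 0.000379) lower.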

How the data were processed

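RNA of 8 samples had been hybridised to single-colour Agilent whole mouse genome arrays, 2 per group. Per the file headers, the authors used version 10.7.3.1 of Agilent Feature Extraction to obtain signal intensities, and its processed signal is background-corrected. From this deposited intensity, log2 was taken and each array's 75th percentile over non-control spots subtracted. Outlier spots were left out, no spot was saturated, and spots of a probe were averaged. Accessions were matched to RefSeq (27584 of 41174 probes, 18842 symbols), and a gene was represented by its brightest probe. A gene was tested where some group had both of its arrays well above background. The 4 groups were fitted with limma 3.58.1 in R 4.3.3 (lmFit, eBayes, with 4 residual degrees of freedom and 1.76 from the prior), with Benjamini-Hochberg adjustment over 13617 genes. All adjusted p-values are from this limma fit unless an alternative is named, and single probes were adjusted over 20342 probes. The fit was tested on simulated data.

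The members, the other splicing lists and the marker lists were chosen with earlier results of these data known. Of the symbols with each prefix (Srsf, Hnrnp, Snrp, and Sf3a with Sf3b), the 3 largest differences that passed in each direction were described. So were the named regulators, every difference of at least 1.5-fold and genes whose probes passed in opposite directions. Some of these are given without an SE or p-value. Alternatives were normexp background correction (offset 50, on median foreground and background signals, since the arrays' files used here hold no mean signal), quantile, median and spike-in scaling, no filter or all 8 arrays above background, the mean of a gene's probes, an intensity trend, only the groups compared, a minimum change of 1.2-fold, the replicate number as a block and each array left out. The authors' deposited log2 value table had NPC columns with medians of -3.79, -3.73, -3.82 and -3.79, which equalled the arrays' log2 processed signals less a constant (at least 99.988% of probes within 0.01), and it was used for NPC alone. Its 72 h columns, with medians of -3.91 to -3.78, did so for 4.13% to 14.1% of probes, and what they hold stays unknown. A number of arrays this small limits the precision: the median SE of a W20 difference in NPC was 0.049.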

Additional observations from a re-analysis of the deposited data

Results flagged for a closer look

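For 11 of the 59 members tested, the W20 difference at 72 h differed from that in NPC by limma's interaction term, with n = 2 arrays in each of 4 groups and p-values adjusted over all genes tested. Upward, the difference of differences was 0.90 for Srsf12 (adjusted p = 0.0157), 0.31 for Hnrnph3 (adjusted p = 0.00777), 0.28 for Hnrnpdl (adjusted p = 0.0272), 0.23 for Sf3b1 (adjusted p = 0.022), 0.18 for Rbfox2 (adjusted p = 0.0442) and 0.16 for Hnrnpa1l2-ps2 (adjusted p = 0.0397), the last being uncertain as a near copy of Hnrnpa1. Downward, it was -0.55 for Srsf10 (adjusted p = 0.00309), -0.32 for Tra2a (adjusted p = 0.0072), -0.27 for Srsf7 (adjusted p = 0.0136), -0.27 for Hnrnpa2b1 (adjusted p = 0.0252) and -0.15 for Hnrnph1 (adjusted p = 0.0458). Srsf12 was lower with W20 in NPC and higher at 72 h, on a dim probe, and its call ended without W20 NPC replicate 2 (adjusted p = 0.0501). The value for Srsf10 rests on 1 of its 3 probes. The calls of Srsf10, Tra2a, Srsf7 and Hnrnph3 held without each array in turn, and each of the other 6 ended without at least 5 of the 8 arrays.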

How the results depend on the processing

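With quantile scaling 17 members were higher and 7 lower with W20 in NPC and 2 were lower at 72 h, and the difference of Hnrnpk was -0.024 in NPC and -0.011 at 72 h and that of Snrpg -0.0094 at 72 h. With median scaling 1 member was lower in NPC, and the difference of W20 effects passed for 1 upward and 3 downward. With spike-in scaling 12 were higher in NPC, 7 were higher at 72 h, 3 fell over 72 h in W20 cells, and the difference of W20 effects passed for 1 in each direction. At 72 h, 53.8% of all calls were higher (members 96.7%), against 39.7% (members 87.5%) with spike-in scaling and 64.5% (members 96.2%) with no filter. Keeping dim probes in, the difference of W20 effects passed for 2 upward and 3 downward, and the median change of all genes over 72 h in W20 cells moved by 0.10. With the mean of all probes 4 members fell over 72 h in W20 cells, and Srsf10 had 0.044 there. With all 8 arrays above background, with an intensity trend or with the 2 groups alone, 2 members were lower with W20 at 72 h. Asking for a 1.2-fold change left 3 higher and 0 lower in NPC, 1 and 0 at 72 h, 11 and 2 over 72 h in EGFP cells, 14 and 2 in W20 cells, and 0 and 1 for the difference of W20 effects. Of the calls over all genes, 43.6%, 35.7%, 50.2%, 49.5% and 45.9% were then higher, in the same order. The causes of these differences were not tested, except that a larger required change gives fewer calls by construction.

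Leaving out 1 array at a time gave 17 to 31 members higher and 1 to 5 lower with W20 in NPC, 17 to 29 higher and 1 to 2 lower at 72 h, 23 to 35 rising and 5 to 8 falling in EGFP cells, 26 to 31 rising and 7 falling in W20 cells, and 1 to 5 upward and 3 to 4 downward for the difference of W20 effects. A lone array left in a group was assumed to vary like the other groups. The share of all genes called in each of these fits is not given here. The counts therefore do not show whether members lost more calls than other genes. Of 36 calls with W20 in NPC, 17 held without each array and 13 under all 3 other scalings, and of 30 at 72 h, 17 and 8. Over 72 h, 28 and 30 of 41 calls in EGFP cells and 33 and 27 of 37 in W20 cells so held. For the difference of W20 effects, 4 and 2 of 11 held.

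Same-numbered replicates did not deviate together (correlations -0.085 to 0.106), so the numbers were not taken as pairs. With the replicate block 32 members were higher and 4 lower in NPC, 32 and 1 at 72 h, 34 and 8 over 72 h in EGFP cells, 30 and 7 in W20 cells, and 4 and 4 for the difference of W20 effects. Of the calls over all genes, 57.3%, 53.8%, 51.5%, 50.2% and 45.2% were then higher, in the same order. The slide as a random block was not run, since slide and stage are the same split.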
